A study of Mus musculus with 19 samples.

Results

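CDR3s with a cysteine in their centre made up 4339 of the 1082330 distinct CDR3 amino acid sequences read from the T cell receptor beta (TRB) chains of sorted CD4+ T cells in 19 libraries. A CDR3 was counted when its deposited string had 10 to 14 characters and held a cysteine after the first 3 and before the last 4 of them. Another 981351 distinct CDR3s of the same lengths had no such cysteine and served as the comparison set. The strings lack the conserved cysteine that opens the CDR3 and the phenylalanine that closes it, so the cysteines counted lie inside the loop.

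The CDR3 of the beta chain is the part of the T cell receptor built by joining a V, a D and a J segment, and its apex usually lies over the peptide held by an MHC molecule. A cysteine within a few residues of the apex, in either chain, has been used as an index of strong self-reactivity, because receptors that carry it are frequent among thymocytes that respond strongly to self and rare among mature conventional CD4+ cells. Such receptors are known to be removed at checkpoints in the thymus, or to enter lineages of intraepithelial lymphocytes. Codons for cysteine are a single base away from codons for tyrosine, serine, arginine, glycine, tryptophan and phenylalanine.

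All mice were BALB/c, and cells were taken 7 days after surgery or injection. After ligation of a coronary artery (myocardial infarction, MI), CD4+ T cells came from the infarcted heart (n = 3) and from the mediastinal nodes that drain it (MI nodes, n = 3), and mediastinal nodes after chest opening without ligation gave the sham nodes (n = 4). The axillary nodes drained subcutaneous injections of 1 mg of mouse heart extract (n = 3) or 100 µg of porcine cardiac myosin (n = 2), both in Titermax Gold, or of that adjuvant alone (n = 4). Its volume is given as alternative values, not tied to single samples. Heart libraries were made from 5000 sorted cells and held 2426715 to 5126910 reads and 2898 to 4795 distinct CDR3s. Node libraries were made from 500000 sorted cells and held 7534295 to 9235800 reads and 38437 to 230684 distinct CDR3s. Whether each library stems from a single mouse is not labelled, and the p-values therefore reflect only how far these libraries differ, which may be technical. Since only TRB transcripts were amplified, the sorted cell type could not be checked against markers. PCR reads without molecular identifiers are not independent molecules, and all intervals below cover counting error only.

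Members of 3 kinds carry the findings and are printed as deposited. The first are the 5 members listed in the most node libraries, shown because each stood beside a far more abundant CDR3 of the same TRBV and TRBJ segments that had a tyrosine at the place of the cysteine.
in 7 nodes: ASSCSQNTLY
its tyrosine neighbour: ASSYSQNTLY
in 7 nodes: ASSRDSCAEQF
its tyrosine neighbour: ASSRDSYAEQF
in 6 nodes: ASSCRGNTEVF
its tyrosine neighbour: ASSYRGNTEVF
in 6 nodes: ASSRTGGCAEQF
its tyrosine neighbour: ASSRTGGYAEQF
in 5 nodes: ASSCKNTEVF
its tyrosine neighbour: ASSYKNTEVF
Among the nodes, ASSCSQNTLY had 3, 5 and 5 reads in the MI nodes, 3, 2, 0 and 2 reads in the sham nodes, 0 reads in the 3 heart extract nodes, 0 and 2 reads in the myosin nodes and 0 reads in the 4 adjuvant nodes. In MI node 2, 3 of its reads carried TRBV4 with TRBJ2-4, and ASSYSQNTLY had 966 reads there with the same segments. The widespread members were thus listed at a few reads wherever they occurred, and the highest value among the 5 was the 20 reads of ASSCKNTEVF in adjuvant node 1, beside 3287 reads of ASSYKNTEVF.

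The second kind are the most abundant members of the nodes, shown for the contrast with the first: each was listed in 1 library, and no CDR3 that differed at a single residue with the same segments had more reads.
heart extract node 2: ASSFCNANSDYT
MI node 3: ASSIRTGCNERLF
heart extract node 1: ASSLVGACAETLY
sham node 4: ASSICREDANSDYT
sham node 3: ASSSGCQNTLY
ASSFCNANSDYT (TRBV14 with TRBJ1-2) had 1159 reads, which is 0.0133% of the reads of heart extract node 2, and was the member with the most reads in any node. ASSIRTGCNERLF (TRBV19 with TRBJ1-4) had 1031 reads, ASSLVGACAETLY (TRBV15 with TRBJ2-3) 909, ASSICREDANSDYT (TRBV19 with TRBJ1-2) 845 and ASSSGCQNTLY (TRBV19 with TRBJ2-4) 663 reads. The other 11 node libraries had a leading member of 45 to 528 reads.

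The third kind are leading members of hearts 1 and 2, shown with their neighbours because 1 of them decides the read share of its library.
infarcted heart 1: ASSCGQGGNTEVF
its neighbour: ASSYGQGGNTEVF
infarcted heart 2: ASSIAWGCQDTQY
its neighbour: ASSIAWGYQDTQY
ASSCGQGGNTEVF had 44 reads beside 12466 reads of its neighbour, and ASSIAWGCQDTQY 2746 beside 10926. The leading member of heart 3 (TRBV4 with TRBJ1-3) had 42 reads beside 28095. All 3 pairs differ by a tyrosine at the place of the cysteine. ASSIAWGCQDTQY (TRBV19 with TRBJ2-5) was the single member of any heart with 100 or more reads, and it held 87.8% of the member reads of that heart.

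Central-cysteine CDR3s were rare in every library when reads were counted. They held 0.00997%, 0.0710% and 0.00626% of the reads of the infarcted hearts, and 0.0179%, 0.0167% and 0.0530% of the reads of the MI nodes. In the sham nodes they held 0.0275%, 0.0235%, 0.0531% and 0.0295% of reads. In the axillary nodes the read shares were 0.0616%, 0.0447% and 0.0111% after heart extract, 0.0205% and 0.0271% after myosin, and 0.0325%, 0.0268%, 0.0201% and 0.0235% after adjuvant alone. The groups of each comparison overlapped. The widest Wilson 95% interval of any of these shares, in infarcted heart 2, ran from 0.0686% to 0.0736%.

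No comparison of read shares passed the test, an exact two-sided permutation of the libraries with Benjamini-Hochberg adjustment over 6 comparisons. The mean was 0.0291% ± 0.0364 in infarcted hearts and 0.0292% ± 0.0206 in MI nodes (SD, n = 3 each; exact p = 1). Without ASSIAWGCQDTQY the heart mean was 0.00829% ± 0.00188, below all 3 MI nodes, and the exact p was 0.1, the smallest that 3 against 3 libraries allow. That CDR3 was left out after its value was seen, and the MI nodes kept their leading members. The separation is therefore no evidence of a difference. MI nodes averaged 0.0292% ± 0.0206 and sham nodes 0.0334% ± 0.0134 (n = 3 and 4; exact p = 0.629). Nodes of either antigen averaged 0.0330% ± 0.0202 and adjuvant nodes 0.0257% ± 0.00529 (n = 5 and 4; exact p = 0.524), with heart extract alone at 0.0392% ± 0.0257 (n = 3; exact p = 0.4) and myosin alone at 0.0238% ± 0.00470 (n = 2; exact p = 0.8). Sham nodes against adjuvant nodes, which differ in site as well as in treatment, gave an exact p of 0.343. The adjusted p-values of the 6 exact tests ran from 0.943 to 1.

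Counted once per sequence, the members were a larger share of each heart than of any node, and a far larger one than of the MI nodes. They made up 1.24%, 1.49% and 0.897% of the distinct CDR3s of the infarcted hearts (36, 62 and 43 sequences), against 0.0976%, 0.0793% and 0.195% in the MI nodes (196, 183 and 275 sequences). The shares were 0.214%, 0.270%, 0.134% and 0.726% in the sham nodes, 0.601%, 0.355% and 0.682% in the heart extract nodes, 0.297% and 0.287% in the myosin nodes and 0.486%, 0.384%, 0.659% and 0.301% in the adjuvant nodes. Hearts lay above every MI node, and both myosin nodes lay below every adjuvant node, while the other comparisons overlapped.

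**Figure D1:**
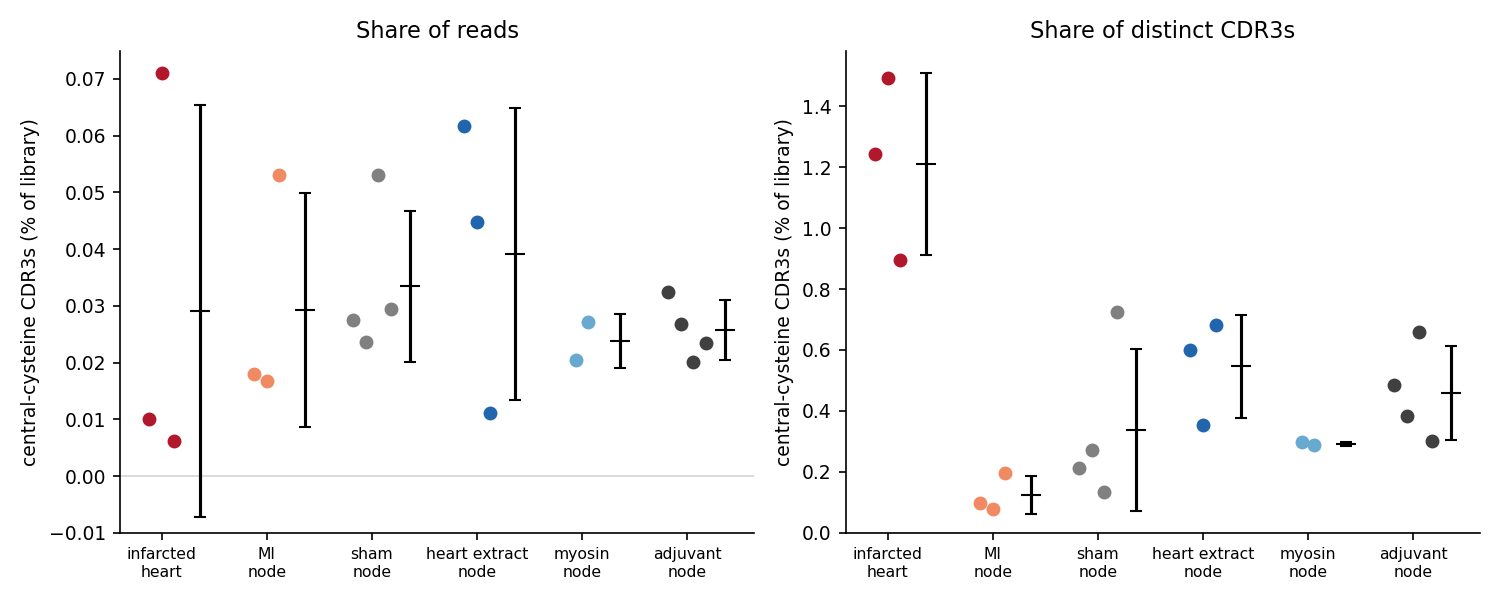
Share of central-cysteine CDR3s in each library, as percent of reads (left) and percent of distinct CDR3s (right), by group; points are libraries, and the bar with whiskers is the mean ± SD. Read shares overlap between all groups with heart 2 and heart extract node 1 highest (0.0710% and 0.0616%), and distinct shares are highest in the 3 hearts (0.897% to 1.49%).

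The distinct share averaged 1.21% ± 0.299 in hearts and 0.124% ± 0.0623 in MI nodes (n = 3 each), a ratio of 9.76. The exact p was 0.1, again the smallest possible, and 0.4 after adjustment. The hearts were sorted at 5000 cells and the nodes at 500000, so tissue and cell number cannot be told apart. When entries beside a neighbour with at least 100 times their reads were left out, the shares were 0%, 1.11% and 0.487% in hearts, against 0.0710%, 0.0626% and 0.12% in MI nodes. Heart 1 then had no member left, the groups overlapped, and the difference was 0.448 percentage points in place of 1.09 (exact p = 0.4). That step also took away 76.3% of the other entries of the hearts and 1.85%, 1.66% and 6.77% of those of the MI nodes. It therefore changed the denominators as well, those of the hearts most. MI nodes averaged 0.124% ± 0.0623 and sham nodes 0.336% ± 0.266 (n = 3 and 4; exact p = 0.171). Antigen nodes averaged 0.445% ± 0.184 and adjuvant nodes 0.457% ± 0.154 (n = 5 and 4; exact p = 0.921), with heart extract nodes at 0.546% ± 0.170 (n = 3; exact p = 0.486) and myosin nodes at 0.292% ± 0.00706 (n = 2; exact p = 0.2, where 0.0667 is the smallest possible). Sham nodes against adjuvant nodes gave an exact p of 0.429.

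Among the nodes, the distinct share was higher where fewer distinct CDR3s were listed. Over the 16 nodes Pearson's r between both was -0.872 (permutation p = 4.00e-05) and Spearman's rho -0.965 (permutation p = 1.00e-05, the smallest that 100000 permutations give). These p-values were 1.80e-04 and 9.00e-05 after adjustment over 9 relations, and r was -0.885 without the 2 libraries farthest from the median. Within the 7 mediastinal nodes r was -0.840 and rho -0.929 (exact permutation p = 0.00119 and 0.00675, adjusted 0.00357 and 0.0202). Within the 9 axillary nodes r was -0.970 and rho -0.933 (exact permutation p = 2.76e-05 and 7.50e-04, adjusted 1.80e-04 and 0.00337). Distinct CDR3s form the denominator of the share, so the 2 measures are not independent. The read share had no such relation, with r of 0.0384 and rho of -0.0294 over all nodes (permutation p = 0.889 and 0.918). Whether the number of distinct CDR3s accounts for the spread of the distinct share was not tested.

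Members had few reads. Clone size here means the reads of a CDR3, and whether each small entry is a T cell clone was not tested. The members had a median of 2 reads in each of the 16 node libraries, where other CDR3s of the same lengths had medians of 7 to 37 reads. In the hearts the medians were 3, 3 and 4 reads, against 6 reads for other CDR3s in each heart. Of all 4339 members, 3962 (91.3%) never exceeded 9 reads in any library, 377 reached 10 reads and 75 reached 100 reads. A 2-read entry is at the lowest count the tables list, and 62.8% ± 3.40 of a node's members stood there, against 17.9% ± 7.41 of other CDR3s (n = 16).

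Within each of the 16 nodes, the share of members was higher among the smallest clones than among the largest. Among CDR3s of under 10 reads 0.912% ± 0.403 had a central cysteine, among those of 10 to 99 reads 0.0462% ± 0.0245, and among those of 100 or more reads 0.0222% ± 0.0161 (SD, 16 nodes). The largest class was below the smallest class in 16 of 16 nodes, a 41.0-fold difference in the means, with a permutation p of 3.05e-05 by exact sign flips, the smallest possible. It was also below the middle class in 15 of 16 nodes (exact sign-flip permutation p = 4.88e-04). The exception was sham node 3, with 0.0365% at 10 to 99 reads and 0.0499% at 100 or more. Without near neighbours, the difference between largest and smallest class was -0.686 percentage points in place of -0.890, and with reads drawn to a common total it was -0.862.

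**Figure D2:**
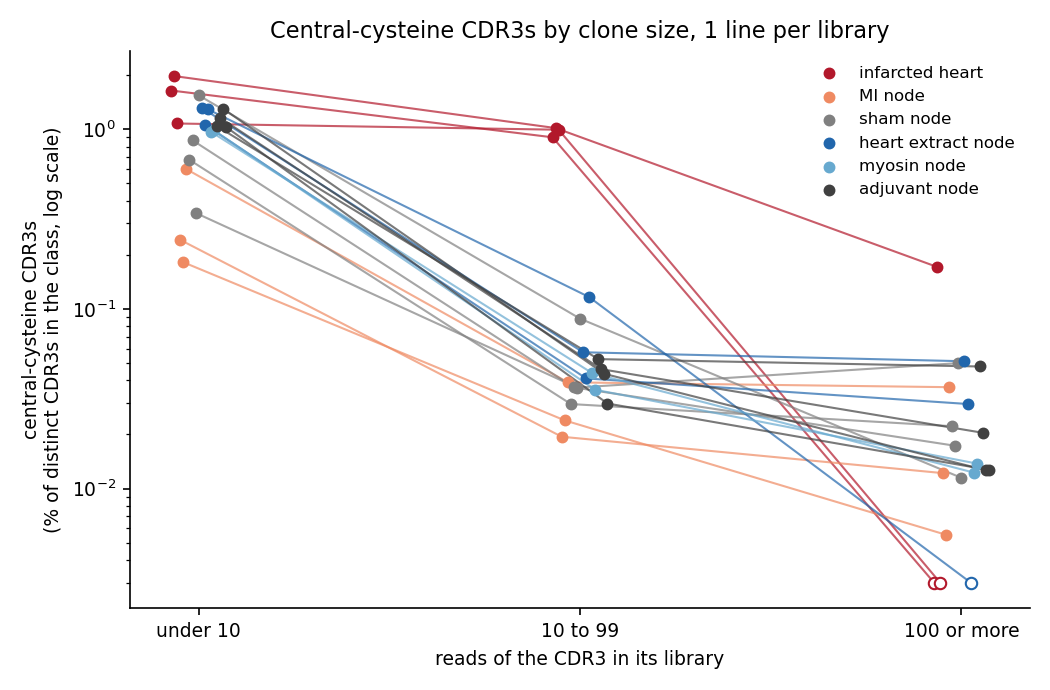
Percent of distinct CDR3s with a central cysteine (log axis) among CDR3s of under 10, 10 to 99 and 100 or more reads; each line is 1 library, coloured by group, and open circles at the bottom mark libraries with no member in the class. The 16 nodes fall to a mean of 0.0222% in the largest class, and hearts stay near 1% at 10 to 99 reads. Hearts had more reads per distinct CDR3 than nodes, so a class does not mark the same relative size in both.

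Pooled over the 16 nodes, 4119 of 568518 CDR3s under 10 reads, 278 of 808705 at 10 to 99 reads and 74 of 325750 at 100 or more reads were members. In the hearts, 113 of 7387, 27 of 2760 and 1 of 1699 CDR3s of these classes were members, or 1.53%, 0.978% and 0.0589%. The hearts' middle class thus stood near 1% (0.901%, 1.01% and 0.993% in the 3 hearts), against 0.0194% to 0.0390% in the MI nodes. A class of reads does not mark the same relative size in both. Hearts held a mean of 3.98e+06 reads over a mean of 3949 distinct CDR3s, and MI nodes 8.39e+06 over 190778. At 100 or more reads hearts 1 and 3 had 0 of 404 and 0 of 711 CDR3s, which allows shares of up to 0.743% and 0.422%, so no difference from the MI nodes (0.0122%, 0.00553% and 0.0367%) was detectable there. The class shares of conditions were compared too. Neither the share under 10 reads, nor that at 100 or more, nor their difference passed in any of the 6 comparisons, with adjusted p of the exact permutation tests between 0.286 and 1. Hearts against MI nodes (smallest possible exact p 0.1) and myosin against adjuvant nodes (0.0667) could not pass. Under 10 reads, every heart stood above every MI node, at an exact permutation p of 0.1. The share at 10 to 99 reads was not tested between conditions.

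In the smallest class, the axillary nodes held 1.22% ± 0.141 after heart extract (n = 3), 0.977% ± 0.0131 after myosin (n = 2) and 1.13% ± 0.127 after adjuvant alone (n = 4). The mediastinal nodes held 0.341% ± 0.225 in MI nodes (n = 3) and 0.857% ± 0.507 in sham nodes (n = 4), where MI nodes ranged over 0.182% to 0.599% and sham nodes over 0.342% to 1.54%, and overlapped.

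Cysteine was set against all 20 residues in the same window. It had the largest ratio of the share under 10 reads to the share at 100 or more reads, 41.0, while the next residues were valine and glutamate at 1.25 each and the lowest was isoleucine at 0.781. Tryptophan and histidine, at 8.02% and 4.87% of CDR3s of 100 or more reads, had ratios of 1.11 and 1.14, and methionine 0.985. Tyrosine, the most frequent residue of the neighbours described below, had a ratio of 0.899. Cysteine was also the rarest residue among CDR3s of 100 or more reads, at 0.0222%, with methionine next at 2.28%. No other residue was nearly as rare, and one as frequent as glycine (70.6% at 100 or more reads) could not reach such a ratio. These ratios compare residues within the 16 nodes and carry no test.

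**Figure D3:**
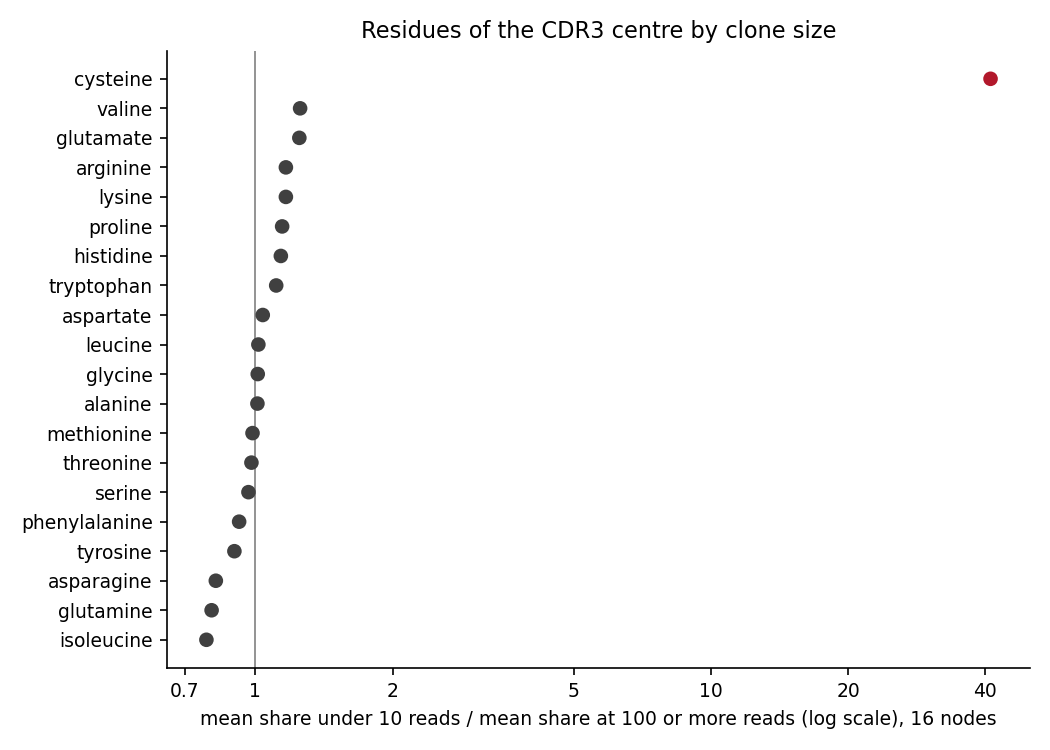
Ratio of the mean percent of CDR3s with a residue in the centre among those under 10 reads to that among those of 100 or more reads (log axis), for the 20 residues over 16 nodes; the vertical line marks equal shares. Cysteine lies at 41.0 and the 19 others between 0.781 and 1.25.

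Most members were private to 1 library, but so were most other CDR3s of few reads. Of the 4339, 4126 (95.1%) were listed in 1 library, against 76.1% of other CDR3s, and 33 (0.761%) were in 3 or more libraries, against 12.2%. Only 8.69% of members reached 10 reads in some library, against 65.4% of others, so these contrasts also compare clone sizes. Among CDR3s that reached 10 reads in some library, 94.2% of members and 66.5% of others were in 1 library. Among those that never did, which are most members, the shares in 1 library were nearly the same for members and others. These shares pool all libraries and carry no test. None of the 36, 62 and 43 members of the 3 hearts was in another heart, where 1.00%, 0.728% and 0.388% of the other CDR3s of these hearts were found. At shares this low and with so few members, that count of 0 does not set the members apart. No heart member was in the MI node of the same number either, against 15.1%, 16.9% and 15.1% of others. In any node there were 0, 6 and 2 of the members (0%, 9.68% and 4.65%), against 31.7%, 33.6% and 33.3% of others. Members of hearts had mostly few reads. Among CDR3s under 10 reads 0 of 30, 4 of 51 and 2 of 32 members were in any node, against 23.1%, 24.9% and 24.0% of others. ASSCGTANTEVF, with 27 reads in heart 2, was the most shared of the hearts' leading members, at 2 reads in each of 4 nodes.

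Most small members stood beside a far larger clone. Near neighbours were defined as entries with the same TRBV and TRBJ segments that differ at a single residue and have at least 100 times the reads in the same library. In the nodes, 60.9% ± 17.9 of entries under 10 reads with a central cysteine had such a neighbour, against 38.7% ± 23.8 of other entries (SD, n = 16 nodes), and the share was higher for the members in 16 of 16 nodes (exact sign-flip permutation p = 3.05e-05, the smallest possible). Since members had fewer reads within that class, entries of exactly 2 reads were compared as well: 65.3% ± 18.3 of members and 52.3% ± 22.6 of others had a near neighbour, higher in 16 of 16 nodes (exact sign-flip permutation p = 3.05e-05). Both tests were chosen after these values had been seen. In the hearts 102 of 114 member entries under 10 reads (89.5%) and 89.3% of the others had a near neighbour, and at 10 to 99 reads 26 of 27 member entries (96.3%) and 88.9% of the others had one. The MI nodes, by contrast, had near neighbours beside 27.9% to 49.2% of their member entries under 10 reads. The part of near neighbours in the higher distinct share of the hearts was not tested.

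**Figure D4:**
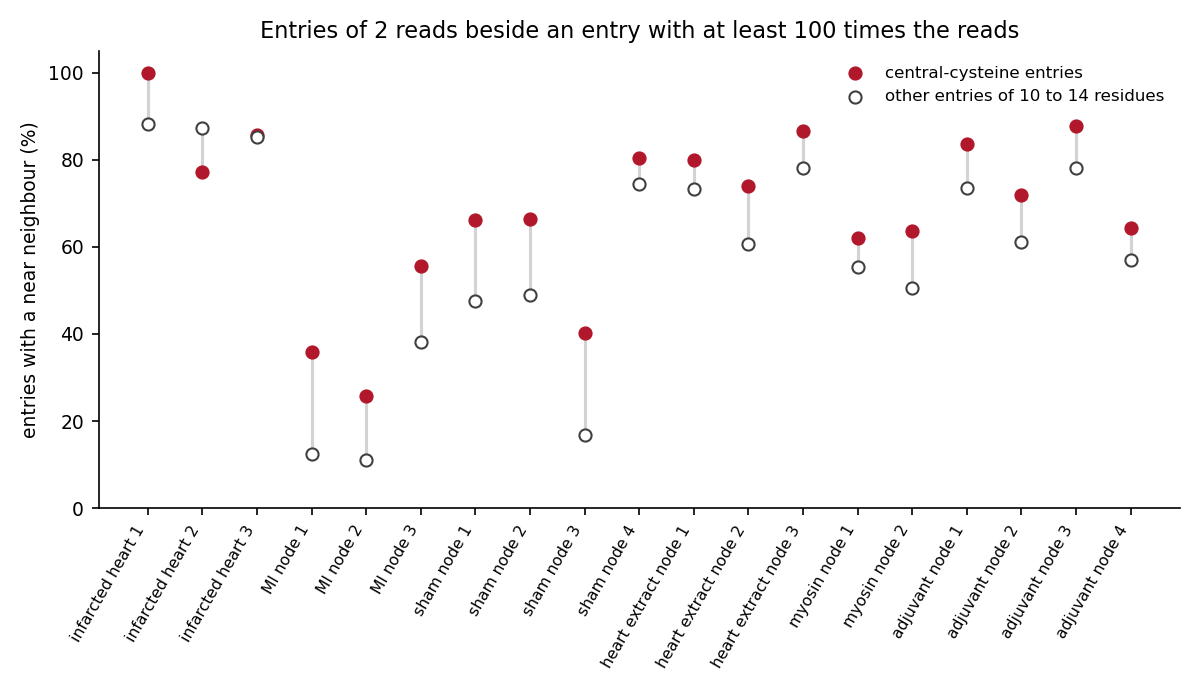
Percent of entries of 2 reads that stand beside an entry with the same segments, a single residue different and at least 100 times the reads; filled points are central-cysteine entries and open points other entries of 10 to 14 residues, by library. In all 16 nodes the filled point is the higher one, from MI node 2 (25.9% and 11.1%) to adjuvant node 3 (87.8% and 78.1%), while in the hearts the order varies.

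The differing residue was nearly always the cysteine itself, which the rarity of large members largely fixed in advance. A neighbour that differed elsewhere would itself hold a central cysteine and at least 100 times the reads. Only 74 node members had 100 or more reads. Of 2684 member entries of the nodes with a near neighbour, 2628 (97.9%) differed from it at the cysteine, and in 2491 of these (94.8%) the neighbour held a residue whose codons lie a single base from a cysteine codon. Such residues also made up 43.8% of all letters in the windows of node CDR3s, and tyrosine alone made up 2.23% of all letters. Of the 2628 neighbours, 53.7% held tyrosine, 14.6% arginine, 12.3% serine, 8.98% glycine, 4.07% tryptophan and 1.18% phenylalanine. The neighbours had a median of 569 reads, and their reads exceeded those of the member by a median factor of 237. In the hearts 123 entries differed at the cysteine, and all 123 neighbours held such a residue, serine in 43.1% and tyrosine in 28.5%.

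Entries of more reads can have a near neighbour only where a correspondingly larger clone exists. In the nodes, near neighbours stood beside 9 of 306 member entries at 10 to 99 reads (2.94%), against 1658 of 894116 others (0.185%). At 100 or more reads they stood beside 0 of 69 member entries and 5 of 300918 others (0.00166%). The 74 node members of 100 or more reads, summed over segments, ranged from 100 to 1159 reads with a median of 202. They came from 15 of 16 nodes, heart extract node 3 having none (0 of 13446, which allows up to 0.0223%). All 74 were different sequences, and 68 of them were listed in no other library. A more abundant CDR3 that differed at a single residue existed for 9 of them, such as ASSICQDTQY, with 322 reads beside 819 of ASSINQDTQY in sham node 1, and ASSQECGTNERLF, with 200 beside 1845 of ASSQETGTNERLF in sham node 2.

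The cysteine was not confined to the exact middle. It lay within 2 residues of the middle in 79.8% of the members with a single central cysteine, before it in 40.5% and after it in 51.5%. Position 4 held it in 22.4%. Among members that reached 10 reads these values were 82.4%, 41.4%, 50.5% and 19.5%. Glycine preceded the cysteine in 28.1% of members and serine in 24.3%, and alanine followed it in 30.1%. A second central cysteine was present in 4 members.

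Over all node entries pooled, the rate of cysteine changed little across the limits of the rule. In the nodes, 0.0684% of CDR3 entries of 10 to 14 residues had a cysteine at position 4, just inside, and 0.0551% at position 3, just outside. At the start this did not hold elsewhere. Among node entries of 10 or more reads 0.00609% had it at position 4 and 0.0215% at position 3. In the hearts the values were 0.235% and 1.53% of all entries. Counted from the end, 0.0900% of all node entries had it at the fifth place and 0.0868% at the fourth place. Per length, 0.213% of node entries of 10 residues and 0.313% of those of 14 residues were members. The same window held a cysteine in 0.279% of node entries of 9 and 0.342% of those of 15 residues. Position 2, outside the rule, had a cysteine in 8.31% of node entries, which is part of the germline start of TRBV1.

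Members and other CDR3s used the TRBV segments in different proportions. Compared with other CDR3s of 10 to 14 residues in the same library, 14 of 22 TRBV segments passed an exact sign-flip permutation test over 16 nodes with adjustment (percent called 63.6), 4 higher and 10 lower among members. TRBV4 made up 21.4% ± 4.02 of members and 8.07% ± 1.10 of others, 2.66-fold and higher in 16 of 16 nodes. TRBV14 made up 14.1% ± 4.82 and 4.88% ± 0.658, 2.89-fold, and TRBV19, the segment with the most members, 22.6% ± 3.67 and 11.8% ± 1.02, 1.92-fold, each in 16 of 16 nodes. The adjusted p of each of these was 7.46e-05 (exact sign-flip permutation, n = 16). TRBV5 was higher by less, by a ratio of 1.13 (12 of 16 nodes, adjusted p = 0.0136), and did not pass when others were weighted to the members' lengths (adjusted p = 0.179).

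The TRBV13 family stood out on the low side. TRBV13-1 made up 1.95% ± 0.742 of members and 10.4% ± 0.993 of others, TRBV13-2 2.74% ± 1.40 and 13.7% ± 1.53, and TRBV13-3 0.896% ± 0.791 and 4.89% ± 0.429. All 3 were lower in 16 of 16 nodes, at 0.187, 0.200 and 0.183 of the share of others. TRBV31 (1.81% of members and 5.87% of others) and TRBV20 (2.39% and 6.23%) were also lower in 16 of 16 nodes. TRBV2, TRBV29, TRBV17 and TRBV1 passed with smaller differences, at 0.649, 0.505, 0.674 and 0.860 of the share of others. TRBV23 passed with 0 member entries among 4595, but it made up only 0.0112% of others, and with no member its difference could only be negative.

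Among TRBJ segments, 8 of 11 passed the same test (percent called 72.7), 2 higher and 6 lower. TRBJ2-1 made up 28.3% ± 3.87 of members and 10.1% ± 0.395 of others, 2.81-fold and higher in 16 of 16 nodes (exact sign-flip permutation, adjusted p = 6.71e-05). TRBJ2-3 made up 12.5% ± 1.79 and 10.3% ± 0.368 (15 of 16 nodes, adjusted p = 9.59e-05). TRBJ2-2 was at 0.508, TRBJ2-7 at 0.610, TRBJ1-4 at 0.654 and TRBJ2-5 at 0.664 of the share of others, each lower in 16 of 16 nodes, and TRBJ1-3 and TRBJ2-4 were lower by less. In the hearts, TRBV4, TRBV14, TRBV19, TRBJ2-1 and TRBJ2-3 were also higher among members than among others in 3 of 3 libraries, with TRBJ2-3 at 23.8% and 10.6%. TRBJ2-4 (16.8% of heart members and 7.09% of others) and TRBV1 (13.0% and 9.69%), both lower among node members, were higher among members in 3 of 3 hearts.

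With TRBV4, TRBJ2-1 and TRBJ2-3, the cysteine lay mostly at a single place. Of 993 member entries with TRBV4 in the nodes, 703 (70.8%) had the cysteine at position 4, where 14.9% of other TRBV4 entries had tyrosine. Of 1300 member entries with TRBJ2-1, 1003 (77.2%) had it at the fifth place from the end, where 67.6% of other TRBJ2-1 entries had tyrosine, as in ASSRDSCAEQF and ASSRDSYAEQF above. Of 567 with TRBJ2-3, 290 (51.1%) had it at the sixth place from the end, where 46.9% of others had serine. Members with TRBV14 and TRBV19 had it at position 4 less often, in 95 of 641 (14.8%) and in 110 of 1039 (10.6%). Tyrosine was the neighbour's residue in 85.9% of the near entries with TRBJ2-1 and in 76.6% of those with TRBV4, against 21.9% of those with TRBJ2-3.

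The segment profile changed with clone size. Among CDR3s of 10 or more reads, 12 TRBV segments passed (percent called 54.5). TRBV3 made up 8.50% ± 5.93 of members and 2.79% ± 0.678 of others (12 of 16 nodes, exact sign-flip permutation, adjusted p = 0.00850), and TRBV15 made up 7.89% ± 6.28 and 2.39% ± 0.130 (12 of 16 nodes, adjusted p = 0.00850). TRBV17 (4.22% and 1.57%) and TRBV26 (1.90% and 0.281%) passed in the same direction, in 11 and 7 of 16 nodes. TRBV4 and TRBV14 were still higher, at 15.2% and 7.84% and at 8.50% and 3.31%, while TRBV19 and TRBV5 did not pass. The TRBV13 segments, TRBV20 and TRBV31 were lower here too. Of the TRBJ segments 4 of 11 passed (percent called 36.4): TRBJ1-2 was higher, at 13.1% ± 8.04 of members and 5.21% ± 0.197 of others, TRBJ2-1 was higher, at 19.4% and 10.4%, and TRBJ2-2 and TRBJ2-7 were lower.

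**Figure D5:**
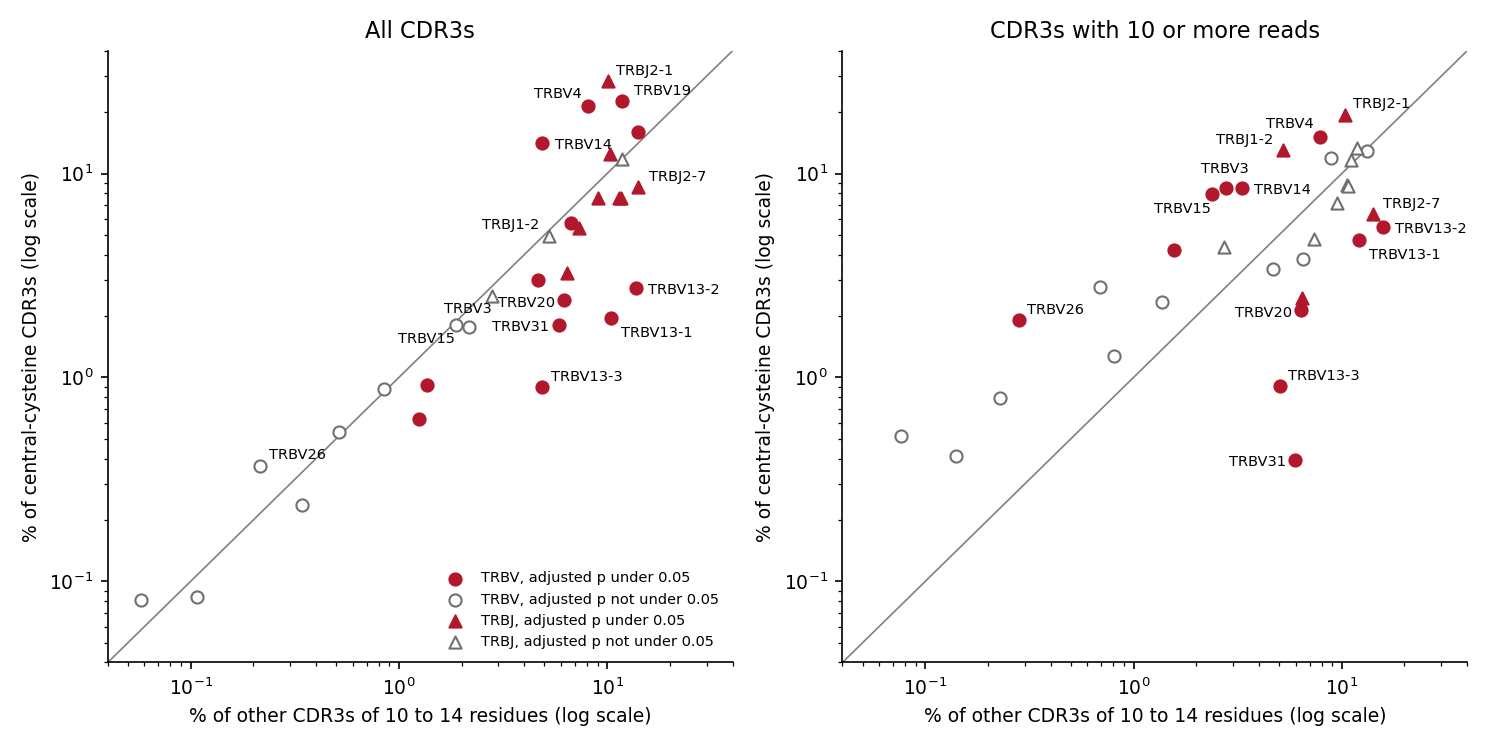
Mean percent of central-cysteine CDR3s (vertical, log axis) against mean percent of other CDR3s (horizontal, log axis) that use each TRBV (circles) or TRBJ segment (triangles) over 16 nodes, for all CDR3s (left) and for CDR3s of 10 or more reads (right); filled symbols passed the test, the diagonal marks equal use, and segments without a member are not drawn. TRBV4, TRBV14 and TRBJ2-1 lie above the diagonal in both panels, and TRBV15, TRBV3 and TRBJ1-2 only on the right.

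For some segments the pooled share of entries with a central cysteine was no lower among large clones. Of TRBV3 entries, 0.190% had a central cysteine under 10 reads, 0.192% at 10 to 99 reads and 0.318% at 100 or more reads (6 entries, Wilson 95% interval 0.146% to 0.693% for the last). For TRBV15 the values were 0.238%, 0.166% and 0.423% (9 entries, 0.223% to 0.802%). TRBV12-2 and TRBV26, with 1 and 2 large entries, were at 0.246%, 0.340% and 0.388% and at 0.483%, 0.215% and 0.840%. The median over nodes at 100 or more reads was 0 for each of these 4 segments. For TRBV4 the pooled values were 1.97%, 0.0598% and 0.0286%, for TRBV14 1.32%, 0.186% and 0.0151%, and for TRBV16 0.605%, 0.0731% and 0.0222%. These pool the 16 nodes, were chosen after the values had been seen, and carry no test.

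At 100 or more reads only 69 node entries with a central cysteine remained. TRBV15 had 9 of them, or 13.0%, against 0.704% of other entries of that size. TRBV3 had 6 (8.70% against 0.624%), TRBV26 had 2 (2.90% against 0.0784%) and TRBJ1-2 had 12 (17.4% against 4.90%). TRBV19 and TRBV5 had 15 each (21.7%), and made up 24.1% and 24.0% of other entries. With so few entries, most segments were at 0 in most libraries. The segment test was run on this class only as an alternative, and no conclusion is drawn from it.

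Between conditions, the members' reads within each segment were compared with edgeR's quasi-likelihood test on read counts. In the 5 node comparisons 0 of 21 TRBV and 0 of 11 TRBJ segments passed (percent called 0). After MI and sham surgery the smallest p-values belonged to TRBV4 (0.0222% of TRBV4 reads in MI nodes and 0.0575% in sham nodes, edgeR adjusted p = 0.511) and TRBJ2-4 (0.0178% and 0.0411%, edgeR adjusted p = 0.852). After antigen and adjuvant they belonged to TRBV17 (0.0407% in antigen nodes and 0.140% in adjuvant nodes, edgeR adjusted p = 0.920) and TRBJ2-4 (0.0106% and 0.0228%, edgeR adjusted p = 0.897). For heart extract against adjuvant they were TRBV24 (edgeR adjusted p = 0.392) and TRBJ1-1 (0.0278% and 0.0101%, edgeR adjusted p = 0.717), for myosin against adjuvant TRBV29 (edgeR adjusted p = 0.878) and TRBJ1-4 (edgeR adjusted p = 0.761), and for sham against adjuvant TRBV30 (edgeR adjusted p = 0.439) and TRBJ1-3 (0.0307% and 0.00715%, edgeR adjusted p = 0.320).

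Between hearts and MI nodes the share of member reads within a segment differed for some segments. Of 16 TRBV segments 3 passed (percent called 18.8) and of 11 TRBJ segments 4 passed (percent called 36.4), all lower in hearts. Of TRBJ2-7 reads, members held 0.00603%, 0.00528% and 0.00848% in hearts, against 0.0185%, 0.0159% and 0.0237% in MI nodes (log2 fold change -1.55, edgeR adjusted p = 1.43e-04). Of TRBJ2-1 reads they held 0.00779%, 0.00355% and 0.00896%, against 0.0346%, 0.0262% and 0.0532% (log2 -2.49, edgeR adjusted p = 7.95e-04). Of TRBJ1-2 reads they held 0.00292%, 0.0119% and 0.00297%, against 0.0719%, 0.0492% and 0.0350% (log2 -3.11, edgeR adjusted p = 0.00501). The 2 groups did not overlap in any of these segments. A lower share within a segment is not in itself a shift between segments. Over all segments, members held a mean of 0.0291% of heart reads and 0.0292% of MI node reads. Without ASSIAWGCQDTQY the heart mean was 0.00829%. Whether the called segments differ beyond that overall gap was not tested. The direction depended on what was counted: with distinct CDR3s in place of reads, edgeR called 11 of 16 TRBV and 10 of 11 TRBJ segments, TRBJ2-7, TRBJ2-1 and TRBJ1-2 among them, and all were higher in hearts.

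TRBJ1-5, TRBV3 and TRBV29 had 0 member reads in all 3 hearts. In MI nodes 1, 2 and 3 the members held 0.0184%, 0.0629% and 0.208% of TRBJ1-5 reads, 0.0836%, 0.0829% and 0.288% of TRBV3 reads and 0.0206%, 0.0308% and 0.739% of TRBV29 reads, with node 3 highest each time. Against a floor of 3 reads in each heart library, the member share of TRBJ1-5 reads was at least 15.7-fold lower (edgeR adjusted p = 1.43e-04). For TRBV3 reads it was at least 13.8-fold (edgeR adjusted p = 0.00107) and for TRBV29 reads at least 23.6-fold lower (edgeR adjusted p = 0.00111). Without MI node 3 these bounds were 6.63, 7.57 and 2.30-fold, so the value of TRBV29 rests on that library most. TRBV15 had 2 member reads in heart 2 and 0 in hearts 1 and 3, against 176, 95 and 250 reads in the MI nodes (edgeR adjusted p = 0.00107). These segments had 92267 to 226088 reads in the 3 hearts together, and the small number of sorted heart cells and the tissue cannot be told apart. The bounds and p-values count reads, which are not independent. As entries, TRBJ1-5, TRBV3 and TRBV29 made up only 2.79%, 2.03% and 1.98% of the 11864 other heart entries. In the nodes 0.243%, 0.197% and 0.0894% of the entries with these segments were members. Counted as entries, 0 members in the hearts is therefore little evidence of a difference. The TRBV calls rested on all 3 MI nodes: without any 1 of them, 1 segment passed in place of 3, and without heart 2, 6 passed. The TRBJ calls were 2 in place of 4 without heart 3, MI node 2 or MI node 3.

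Single members could hardly be tested. Of 121771 CDR3s with a read in at least 3 nodes and at least 20 reads in all, 5 had a central cysteine, and edgeR called 0 of all CDR3s in each of the 5 node comparisons (percent called 0), with 11900 to 31144 at an unadjusted p under 0.05. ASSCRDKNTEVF had 200, 0 and 0 reads after heart extract, 56 and 0 after myosin and 0 in all 4 adjuvant nodes (edgeR adjusted p = 0.209 for antigen nodes against adjuvant nodes). It also had 4 reads in MI node 3 and 2 in sham node 3. Its reads thus came from 1 library of each antigen. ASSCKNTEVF had 0 reads in the 3 heart extract nodes, 0 and 2 in the myosin nodes and 20, 0, 0 and 5 in the adjuvant nodes (edgeR adjusted p = 0.273). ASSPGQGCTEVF, with 184 reads in sham node 3 and 4 in MI node 1, gave an edgeR adjusted p of 0.854 between MI and sham nodes. None of the 5 passed in any comparison by edgeR. DESeq2 on the same reads called 112 to 1621 of all CDR3s per comparison and gave the 5 members no adjusted p.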

How the data were processed

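CDR3 tables from 19 libraries were used. Per the labels' protocols, TRB transcripts were amplified by arm-PCR at iRepertoire and sequenced on an Illumina instrument; no source used here names the aligner, error correction or segment reference. Each deposited table holds a read count, not normalized, per combination of CDR3 amino acid sequence, TRBV and TRBJ, and lists nothing below 2 reads. The members, lists and tests were chosen with earlier results of these data known.

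Read counts were summed per CDR3. Shares carry Wilson 95% intervals, and a count of 0 is given with the share that 3 counts of the total make up. Groups came from the labels and were compared by exact two-sided permutation of libraries. Members and other CDR3s were compared by exact sign flips over 16 nodes (65536 flips), with Benjamini-Hochberg adjustment at 0.05. Member reads per segment were fitted with the log of the segment's reads as offset, and single CDR3s with library totals, in edgeR 4.0.16 (R 4.3.3), quasi-likelihood; DESeq2 1.42.0 was the alternative. Other steps used Python 3.11.15 and scipy 1.17.1. The scripts were tested on simulated data. At the spread between libraries fitted here, the single-CDR3 test recovered 0 of 195 CDR3s altered 1000-fold in such data. The segment test recovered 3 of 60 segments altered 3-fold and 56 of 60 altered 10-fold. Whether the segment values hold at the spread fitted here was not tested. A count of 0 in either test therefore says little.

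Named CDR3s were the most abundant of each library, the 5 in the most nodes, up to 5 per heart and, per comparison, those past the threshold or the 3 with the smallest p; of these, the text describes those that carry a result. Segments followed the same rule with up to 12. No same-numbered pair of libraries correlated above 0.1, so numbers were not used as pairs. Alternatives left out low-count entries, near neighbours, the 100 most abundant CDR3s or 1 library at a time, narrowed the window or changed the normalization. Settings of 100 or more reads, near neighbours in segment use, entries of 2 reads, heart 2 without its leading member and fold bounds without 1 MI node were chosen after seeing the data.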

Additional observations from a re-analysis of the deposited data

Results flagged for a closer look

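Sham node 4 stood apart from the other 3 sham nodes in the share of central-cysteine CDR3s among CDR3s of 10 to 99 reads, at 0.0882% where the next highest sham node had 0.0365%. Heart extract node 3 stood apart in the same class among the 5 antigen nodes, at 0.116% where the next highest had 0.0573%. Chance flags about 1 in 20 groups of this kind. Both libraries also had a higher share of small members than most of their group, with distinct shares of 0.726% and 0.682%, and heart extract node 3 listed the fewest distinct CDR3s of any node, 38437. The part of the number of distinct CDR3s in these values was not tested.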

How the results depend on the processing

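The fall of the cysteine share with clone size kept its direction under every alternative run, with differences of -0.938 to -0.847 percentage points when 1 library was left out. None of the comparisons of shares between groups passed under any alternative. Hearts against MI nodes and myosin against adjuvant nodes have too few libraries to pass. Several of the small differences between groups, in percentage points, turned. For reads of hearts minus MI nodes they were 0.00105 at 100 or more reads, 0.00149 at 10 or more reads, 0.000816 with the cysteine within 2 residues of the middle, 0.0528 without the 100 most abundant CDR3s and -0.0211 to 0.0118 with 1 library left out. Leaving out 1 library gave -0.0161 to 0.00241 for reads of MI minus sham nodes and -0.00520 to 0.00144 for reads of myosin minus adjuvant nodes, which was 7.17e-05 without near neighbours. For distinct CDR3s of antigen minus adjuvant nodes it gave -0.0722 to 0.0542, with 0.00384 at 10 or more reads. Sham minus adjuvant nodes were 0.00183 at 100 or more and 0.00172 at 10 or more reads.

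Segments called between hearts and MI nodes numbered 11 TRBV and 10 TRBJ with distinct CDR3s in place of reads, all higher in hearts where the calls by reads were all lower, 6 TRBV with DESeq2, and 2 TRBJ at 10 or more reads. With 1 library left out they numbered 1 to 6 TRBV and 2 to 5 TRBJ. Between MI and sham nodes 1 TRBJ segment was called with distinct CDR3s. Against other CDR3s, 4 TRBJ segments were called at 10 or more reads and 3 at 100 or more, and 9 TRBV segments without near neighbours. Member minus other shares turned sign for some segments. At 100 or more reads they were -4.88 points for TRBV14, -1.45 for TRBV19, -8.03 for TRBV5, 0.405 for TRBV17, 0.408 for TRBV29, -3.72 for TRBJ2-1, -2.36 for TRBJ2-3 and 6.54 for TRBJ2-5. At 10 or more reads they were -0.326 for TRBV5, 2.65 for TRBV17, 0.983 for TRBV29, 0.507 for TRBJ1-4, -2.07 for TRBJ2-3 and 1.54 for TRBJ2-5. As shares of reads they were -2.12 for TRBV14, -4.28 for TRBV5, 1.14 for TRBV17, 0.432 for TRBV29, -0.188 for TRBJ2-3 and 4.70 for TRBJ2-5, and without near neighbours 0.579 for TRBV1 and 0.429 for TRBV17. The cause was not tested.

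Deviations of single CDR3s from the group means correlated at 0.0317 to 0.0385 between hearts and MI nodes of the same number and at -0.0252 to -0.00872 between those of different numbers, so each correlated best with its own number, a hint from the data and not the design. With the replicate number as a block, hearts minus MI nodes differed by 1.09 points of distinct CDR3s (exact p = 0.25) and -0.000146 points of reads, and 3 TRBV and 2 TRBJ segments were called, against 3 and 4 without it. The block changed no other call. Entries of 2 reads are at the lowest count listed, so the small members carry the least depth, and the 0 members of 100 or more reads in 2 hearts allow shares well above those of the nodes.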

Other observations

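The hearts' leading members stood beside abundant CDR3s that differ at the cysteine alone, as far as the 5 with the most reads in each heart show. In heart 1, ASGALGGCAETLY (TRBV14 with TRBJ2-3) had 28 reads beside 11796 reads of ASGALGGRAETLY, and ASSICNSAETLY (TRBV19 with TRBJ2-3) had 13 beside 56661 of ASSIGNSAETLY. In heart 2, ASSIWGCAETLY had 45 reads beside 22528 of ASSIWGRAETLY, and GARCDNANTEVF (TRBV20 with TRBJ1-1) had 21 beside 6652 of GARWDNANTEVF. In heart 3, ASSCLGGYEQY (TRBV4 with TRBJ2-7) had 20 beside 4258 of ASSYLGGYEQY. The residues at the place of the cysteine were arginine, glycine, tryptophan and tyrosine in these pairs.

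Members of 100 or more reads with TRBV3, TRBV15 or TRBV26 as their leading segment numbered 20 of 74 (27.0%) and came from 11 node libraries. TRBV15 led in 11 of them from 7 nodes. One was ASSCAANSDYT (TRBV15 with TRBJ1-2), the leading member of adjuvant node 2 at 292 reads, which also had 3 reads in adjuvant node 3. This grouping was chosen after the values had been seen.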
